A study of Mus musculus with 12 samples.

Results

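The genes described are 41 members of the bone morphogenetic protein (BMP) and transforming growth factor beta (TGF-beta) pathways: 11 ligands, 9 receptors, 7 antagonists and modulators, 8 SMADs and 6 targets. They were chosen by name, each represented by the probe set that carried its symbol alone and had the highest mean over all arrays, and 41 of 41 were found among 19938 genes, each with 1 such probe set. The study profiled induced pluripotent stem cells (iPSCs) of the mouse, made by reprogramming and able to give every germ layer, and their progeny on 12 Affymetrix arrays, 3 in each of 4 groups. The control group is undifferentiated iPSCs at day 0, and the groups at day 4 are spontaneously differentiating cells, cells from an optimized cardiac protocol, and a fraction enriched for cardiac progenitors (CPCs) that flow cytometry sorted as positive for FLK1 and PDGFRα. The agents of the cardiac protocol are abbreviated in the labels and were not interpreted. Strain, genotype and reprogramming method are not given in the sources used here, nor whether the arrays of a group stem from separate cultures. The p-values thus cover only the spread among these arrays, which may be technical. All values are log2 RMA signals in the order of replicates 1, 2 and 3, and signals of different genes were not set against each other because each depends on its own probes.

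BMPs, TGF-betas and activins are secreted dimers that bring type I and type II receptor kinases together at the cell surface, and the active type I receptor phosphorylates receptor-regulated SMAD proteins. Smad1, Smad5 and Smad9 serve BMP receptors, Smad2 and Smad3 serve TGF-beta, activin and Nodal receptors, and both sets enter the nucleus with Smad4. BMP signals switch on genes such as the Id and Msx families there. BMP signalling helps mouse pluripotent cells to self-renew and is later needed for mesoderm to form and to be patterned towards heart and blood.

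The arrays labelled sorted CPC did not all carry the RNA of the genes behind the gate. Kdr, which encodes FLK1, measured 5.50, 5.54 and 5.78 at day 0, 9.83, 10.71 and 10.27 in spontaneous cells, 5.42, 10.81 and 9.01 in the cardiac culture and 10.23, 6.25 and 6.03 on the sorted CPC arrays, and Pdgfra was 11.13, 8.47 and 8.29 on the sorted CPC arrays against 8.75 to 9.14 at day 0. The libraries labelled sorted CPC replicates 2 and 3 and cardiac replicate 1 were therefore low for Kdr. The surface protein on which the sort was made is not among the array values used here. A list of streak and mesoderm markers (7 of 8 measured, Kdr and Pdgfra among them) had the same arrays lowest at day 4: its mean log2 signal was 6.63 to 6.67 at day 0 and 9.14 to 9.36 in spontaneous cells, then 6.95, 9.63 and 8.75 in the cardiac culture and 9.92, 7.86 and 7.23 in the sorted group. Visceral endoderm markers (6 of 6 measured) averaged 6.17 to 6.32 at day 0, 6.51 to 7.53 in spontaneous cells, 9.71, 7.85 and 8.39 in the cardiac culture and 6.60 to 7.64 in the sorted group. Cardiomyocyte markers (5 of 5 measured) averaged 6.24 to 6.79 on every array. Within groups the arrays correlated at 0.966 to 0.997 over all genes, and results that rest on the 3 low-Kdr libraries are given with and without them.

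In spontaneously differentiating cells 10 of the 41 genes rose above day 0 and 0 fell. The 10 are the ligands Bmp2, Bmp5 and Tgfb2, the modulators Bambi and Bmper, Smad1 and Smad6, and the targets Id3, Msx1 and Msx2, with 2.48-fold (Bambi) to 7.36-fold (Msx2) higher signals. In RNA of whole samples, fewer cells of a type and less RNA per cell cannot be told apart. A gene counted as called when it differed by at least 1 on the log2 scale, in either direction, and limma's moderated test over all genes gave it an adjusted p below 0.05, and 1.99% of all genes were called higher and 1.57% lower in this comparison. The cardiac culture had 1 called member, Bmp2, where 1.26% of all genes were called higher and 0.943% lower. The sorted group had 0 called members by limma, with 11 at an unadjusted p under 0.05 (19.3% of all genes), where 0.787% of all genes were called higher and 1.32% lower. Marker lists of other cell types moved with the rise of the 10 genes. Pluripotency markers were called lower in 5 of 8 genes (list mean 9.62 to 9.94 at day 0 and 8.07 to 8.49 in spontaneous cells), streak and mesoderm markers higher in 3 of 7, definitive endoderm markers higher in 2 of 4 (6.51 to 6.58 and 7.87 to 8.64), and trophectoderm markers higher in 2 of 4 (6.14 to 6.26 and 6.73 to 7.20). Fibroblast and feeder markers were called lower in 2 of 6 (6.67 to 7.22 and 6.28 to 6.36), endothelial and haemogenic markers lower in 1 of 7 (6.65 to 6.84 and 6.41 to 6.72), and visceral endoderm and cardiomyocyte markers in 0, while in the cardiac culture 4 of 6 visceral endoderm markers were called higher. The lower endothelial and haemogenic marker was Pecam1 (-2.57). Of these 7 markers, 2 had all spontaneous arrays above day 0 (Etv2 by 1.10 and Lmo2 by 1.39, both uncalled) and 2 had them below. The part of these cell types in the members' values was not tested. By adjusted p alone, with no minimum difference, 15 members were higher and 1 lower in spontaneous cells (5.46% and 4.29% of all genes), 4 higher and 1 lower in the cardiac culture (3.37% and 2.8% of all genes), and 0 in the sorted group (1.81% and 3.31% of all genes). Leaving out any 1 array of the spontaneous comparison gave 2 to 10 called members, with the count at 2 without spontaneous replicate 2, at 5 without spontaneous replicate 3 and at 6 without iPSC replicate 2. Over all genes 430 to 651 were called in these fits, with 430, 508 and 531 in those named, against 711 with every array.

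**Figure D1:**
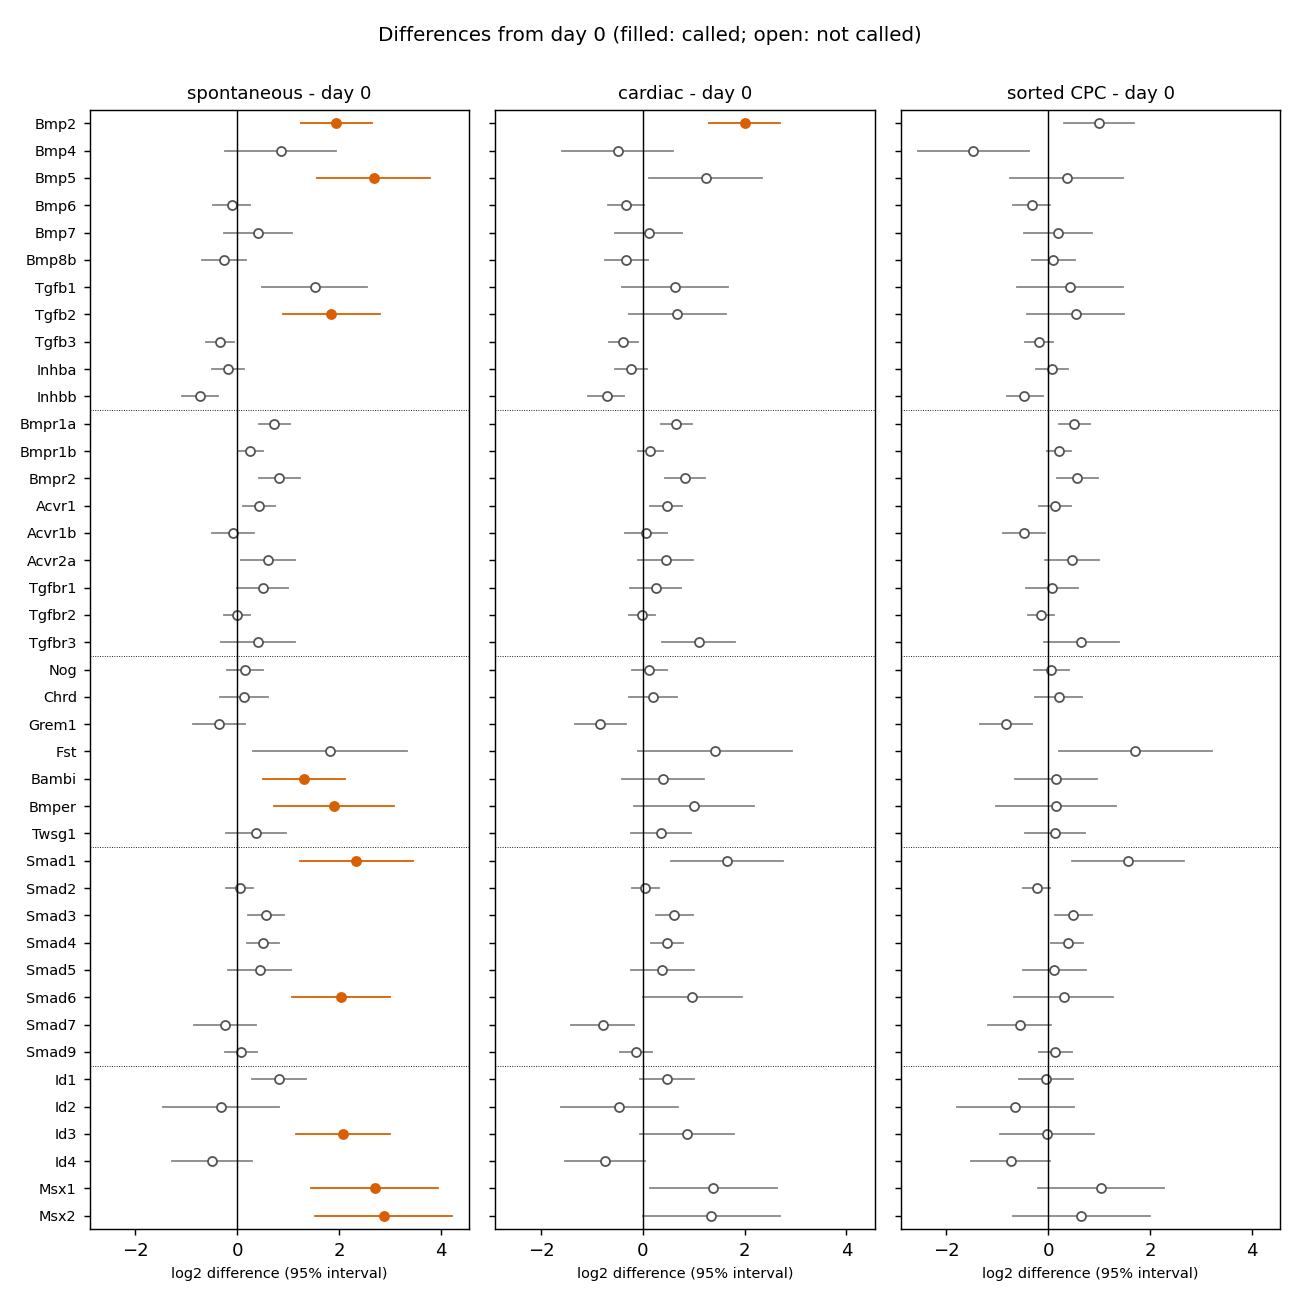
Log2 difference from day 0 of each of the 41 genes (rows, ordered by class) in spontaneous, cardiac and sorted CPC cells (panels), with limma's 95% intervals; filled points are called and open points are not. Called genes number 10 in the spontaneous panel, 1 in the cardiac panel and 0 in the sorted CPC panel.

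Among the ligands, 3 of 11 rose in spontaneous cells and 1 rose in the cardiac culture. Bmp2, a ligand that patterns mesoderm and heart, rose in both. Bmp2 measured 5.05, 5.43 and 6.19 at day 0, 7.60, 7.57 and 7.33 in spontaneous cells, 7.10, 8.23 and 7.35 in the cardiac culture and 6.97, 6.60 and 6.07 on the sorted CPC arrays. Every spontaneous and cardiac array exceeded the highest day 0 array, whereas the lowest sorted array, at 6.07, lay inside the day 0 range. The rise was 1.94 ± 0.32 (log2 ± SE, 3.85-fold, limma adjusted p = 0.00324) in spontaneous cells and 2.01 ± 0.32 (4.02-fold, adjusted p = 0.00338) in the cardiac culture, and neither call was lost when single arrays were omitted. In the sorted group Bmp2 differed by 1.00 ± 0.32 (adjusted p = 0.102).

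Bmp5 measured 5.18, 5.41 and 5.16 at day 0, 7.24, 8.43 and 8.13 in spontaneous cells, 5.30, 8.08 and 6.07 in the cardiac culture and 5.83, 5.45 and 5.55 on the sorted CPC arrays. Bmp5 encodes a BMP of the subgroup that also holds Bmp6 and Bmp7, and its 3 spontaneous arrays stood above all day 0 arrays while cardiac replicate 1 stayed at the day 0 level. The spontaneous rise was 2.68 ± 0.51 (6.42-fold, adjusted p = 0.00681) and was called whichever single array was omitted. In the cardiac culture the difference was 1.24 ± 0.51 (adjusted p = 0.178), and it was 1.83 (adjusted p = 0.0288) without cardiac replicate 1. Bmp2, Bmp5 and Tgfb2 were, with 4 uncalled members, below the lowest array median of 6.09 at day 0, so their fold changes start from dim probe sets.

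Tgfb2 measured 5.55, 5.54 and 5.68 at day 0, 6.26, 8.14 and 7.92 in spontaneous cells, 5.65, 7.09 and 6.09 in the cardiac culture and 5.97, 5.80 and 6.62 on the sorted CPC arrays. Tgfb2, a TGF-beta known for its part in the cushions of the developing heart, was high on spontaneous replicates 2 and 3 and lower on spontaneous replicate 1, which still lay above day 0. It rose by 1.85 ± 0.44 (3.60-fold, adjusted p = 0.0188), a call lost without iPSC replicate 1 or 2 or without spontaneous replicate 2 or 3 (adjusted p = 0.0650 to 0.0946). Tgfb1 measured 7.44, 7.24 and 7.63 at day 0, 8.34, 9.28 and 9.26 in spontaneous cells, 6.92, 9.18 and 8.09 in the cardiac culture and 8.71, 7.48 and 7.39 on the sorted CPC arrays. The spontaneous arrays of Tgfb1, the most widely expressed TGF-beta, did not overlap day 0, but the difference of 1.52 ± 0.48 did not pass (adjusted p = 0.0652), and it did without cardiac replicate 1 (adjusted p = 0.0193), which enters through the shared spread.

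Bmp4 measured 8.29, 8.71 and 9.08 at day 0, 8.49, 10.06 and 10.12 in spontaneous cells, 7.16, 9.44 and 8.01 in the cardiac culture and 7.37, 7.29 and 7.02 on the sorted CPC arrays. Bmp4, the ligand best known for inducing mesoderm, had its lowest mean in the sorted group, with all 3 arrays below the day 0 range, and its spontaneous arrays overlapped day 0. The differences from day 0 were 0.86 ± 0.50 in spontaneous cells (adjusted p = 0.336), -0.49 ± 0.50 in the cardiac culture (adjusted p = 0.572) and -1.47 ± 0.50 in the sorted group (adjusted p = 0.124). Inhbb measured 6.88, 6.84 and 6.66 at day 0, 6.01, 6.19 and 6.01 in spontaneous cells, 6.20, 5.72 and 6.32 in the cardiac culture and 6.51, 6.07 and 6.40 on the sorted CPC arrays. Inhbb encodes an activin and inhibin subunit, and it was chosen for full values after they were seen: all 9 day 4 arrays lay below all day 0 arrays, as for 1 of the 41 members (2.44%) and 5.15% of all genes. Its adjusted p was under 0.05 with differences under the minimum of 1, at -0.72 in spontaneous cells (adjusted p = 0.0151) and -0.71 in the cardiac culture (adjusted p = 0.0234). These p-values rose above 0.05 when iPSC replicate 1 or 2 or spontaneous replicate 1 or 3 was omitted from the former (0.0546 to 0.0648), and iPSC replicate 1 or 2 or cardiac replicate 2 from the latter (0.0767 to 0.0896). The other 5 ligands (Bmp6, Bmp7, Bmp8b, Tgfb3 and Inhba) had 0 calls in any comparison.

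**Figure D2:**
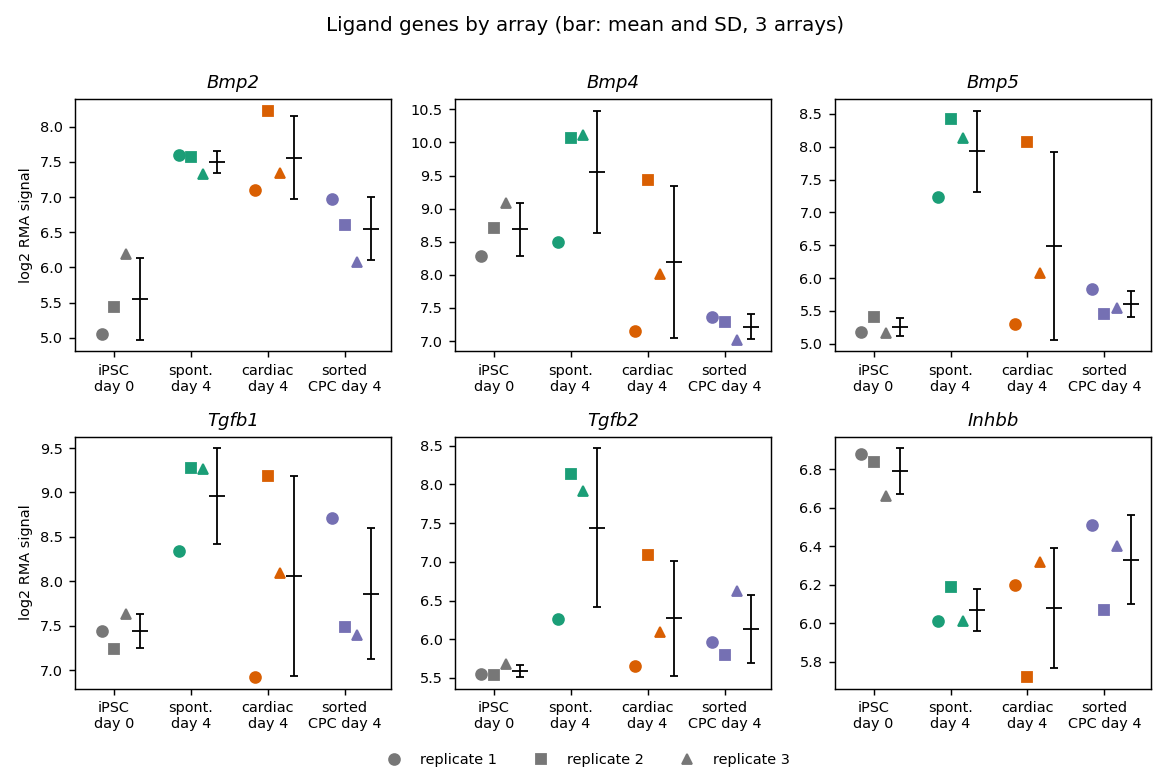
Log2 RMA signal (y axis, scaled per panel) of 6 ligand genes on each of the 12 arrays by group (x axis); markers show replicates and bars the mean and SD of 3 arrays. Bmp2 is above day 0 on all spontaneous and cardiac arrays, Bmp4 is below day 0 on the 3 sorted CPC arrays, and Inhbb is below day 0 on all 9 day 4 arrays.

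No receptor was called, but Bmpr1a and Bmpr2 were above day 0 on every day 4 array, unlike the others of these 9 receptors. The receptor gene Acvr2b, outside the 41, was also above day 0 on every day 4 array. It measured 7.44 to 7.55 at day 0 and 7.70 to 8.30 at day 4. Bmpr1a measured 9.14, 8.94 and 8.91 at day 0, 9.69, 9.82 and 9.67 in spontaneous cells, 9.45, 9.81 and 9.69 in the cardiac culture and 9.68, 9.55 and 9.26 on the sorted CPC arrays. Bmpr2 measured 7.73, 7.40 and 7.47 at day 0, 8.57, 8.33 and 8.20 in spontaneous cells, 8.44, 8.68 and 7.98 in the cardiac culture and 8.28, 8.13 and 7.90 on the sorted CPC arrays. For Bmpr1a, a type I BMP receptor, and Bmpr2, a type II BMP receptor, each of the 9 day 4 arrays exceeded the highest day 0 array. The same held for Smad1, Smad3 and Smad4, making 5 of 41 members (12.2%) against 4.65% of all genes. Bmpr1a differed by 0.73 ± 0.14 in spontaneous cells (1.66-fold, adjusted p = 0.00671), by 0.66 ± 0.14 in the cardiac culture (adjusted p = 0.0166) and by 0.50 ± 0.14 in the sorted group (adjusted p = 0.0589). Bmpr2 differed by 0.83 ± 0.19 in both spontaneous cells (1.78-fold, adjusted p = 0.0144) and the cardiac culture (adjusted p = 0.0211), and by 0.57 ± 0.19 in the sorted group (adjusted p = 0.104). In spontaneous cells the adjusted p of Bmpr1a stayed under 0.05 with any 1 array left out, and that of Bmpr2 rose to 0.0568 to 0.0648 without iPSC replicate 2 or spontaneous replicate 1 or 2. For the cardiac comparison that of Bmpr1a rose to 0.0571 to 0.0717 without iPSC replicate 2 or 3 or cardiac replicate 2 or 3, and that of Bmpr2 to 0.0653 to 0.0926 without iPSC replicate 2 or 3 or cardiac replicate 2.

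Tgfbr3 measured 7.24, 6.72 and 7.06 at day 0, 8.01, 7.10 and 7.13 in spontaneous cells, 8.71, 7.78 and 7.82 in the cardiac culture and 7.87, 8.15 and 6.95 on the sorted CPC arrays. Tgfbr3 encodes betaglycan, a coreceptor that presents TGF-beta2 and binds inhibin, and its cardiac arrays all lay above day 0 with replicate 1 the highest, whereas spontaneous and sorted arrays overlapped day 0. The cardiac difference was 1.10 ± 0.34 (2.14-fold, adjusted p = 0.0743). It was called with array weights (1.21, adjusted p = 0.0246), without sorted CPC replicates 2 and 3 (1.10, adjusted p = 0.0352) and with only the cardiac and day 0 arrays (1.10, adjusted p = 0.0392). The other 6 receptors (Bmpr1b, Acvr1, Acvr1b, Acvr2a, Tgfbr1 and Tgfbr2) differed from day 0 by -0.08 to 0.60 in spontaneous cells, -0.01 to 0.47 in the cardiac culture and -0.48 to 0.47 in the sorted group, with 0 calls. The median difference of the 9 receptors was 0.42, 0.45 and 0.21 in this order, beside medians of -0.03, -0.05 and 0.03 over all genes.

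Of the 7 antagonists and modulators, Bambi and Bmper rose in spontaneous cells. Bambi measured 7.95, 8.07 and 7.93 at day 0, 8.74, 9.65 and 9.50 in spontaneous cells, 7.75, 9.34 and 8.04 in the cardiac culture and 8.62, 8.18 and 7.58 on the sorted CPC arrays. Bambi is a membrane decoy receptor that is itself induced by BMP signals, and it was above the day 0 range on the spontaneous arrays, on cardiac replicate 2 and on sorted CPC replicates 1 and 2. Bmper measured 6.88, 7.34 and 7.88 at day 0, 8.73, 9.66 and 9.43 in spontaneous cells, 7.39, 9.33 and 8.40 in the cardiac culture and 8.85, 7.09 and 6.61 on the sorted CPC arrays. Bmper is a secreted BMP-binding protein, and its day 0 arrays spread from 6.88 to 7.88. Bambi rose by 1.31 ± 0.37 (2.48-fold, adjusted p = 0.0411) and Bmper by 1.91 ± 0.55 (3.75-fold, adjusted p = 0.0442). These are the weakest calls: Bmper lost its call without any 1 array (adjusted p = 0.0556 to 0.162), and Bambi without any 1 except spontaneous replicate 1 (adjusted p = 0.0979 to 0.166).

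Fst measured 6.94, 7.17 and 7.74 at day 0, 9.50, 8.79 and 9.02 in spontaneous cells, 7.50, 9.36 and 9.25 in the cardiac culture and 10.32, 9.72 and 6.93 on the sorted CPC arrays. Fst encodes follistatin, which traps activins and some BMPs, and sorted CPC replicate 3 stood at the day 0 level while replicates 1 and 2 were the highest of all 12 arrays. The sorted difference was 1.71 ± 0.70 (adjusted p = 0.201), and it was 2.74 (adjusted p = 0.00507) without sorted CPC replicate 3. In spontaneous cells the 3 arrays did not overlap day 0 and the difference was 1.82 ± 0.70 (adjusted p = 0.126). Grem1 measured 7.26, 6.55 and 7.31 at day 0, 6.51, 6.86 and 6.70 in spontaneous cells, 5.73, 6.59 and 6.32 in the cardiac culture and 6.40, 5.98 and 6.22 on the sorted CPC arrays. The BMP antagonist Grem1 had its cardiac and sorted means at 6.21 and 6.20 against 7.04 at day 0, a difference of -0.83 ± 0.23 (adjusted p = 0.0546) and -0.84 ± 0.23 (adjusted p = 0.0589). Only the sorted arrays lay wholly below day 0.

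Twsg1 measured 9.51, 8.97 and 8.86 at day 0, 9.40, 9.57 and 9.48 in spontaneous cells, 9.33, 9.68 and 9.39 in the cardiac culture and 9.77, 9.48 and 8.48 on the sorted CPC arrays. Twsg1, an extracellular BMP modulator, overlapped day 0 in each day 4 group, and its differences were 0.13 to 0.37. Nog and Chrd, the classical BMP antagonists noggin and chordin, differed from day 0 by 0.05 to 0.21 over the 3 day 4 groups, with 0 calls.

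Among the SMADs, Smad1 and Smad6 rose in spontaneous cells, and Smad3 and Smad4 shifted by less. Smad1 measured 7.26, 7.33 and 7.04 at day 0, 9.43, 9.67 and 9.54 in spontaneous cells, 7.89, 9.79 and 8.92 in the cardiac culture and 10.11, 8.53 and 7.69 on the sorted CPC arrays. Smad1, a receptor-regulated SMAD of the BMP branch like Smad5 and Smad9, was above day 0 on all 9 day 4 arrays, by the least on cardiac replicate 1 and sorted CPC replicate 3. It rose by 2.34 ± 0.51 in spontaneous cells (5.06-fold, adjusted p = 0.0133), a call lost without spontaneous replicate 2 (adjusted p = 0.0572). In the cardiac culture the difference was 1.66 ± 0.51 (adjusted p = 0.0752), and in the sorted group 1.57 ± 0.51 (adjusted p = 0.106). Without sorted CPC replicate 3 the sorted difference was 2.11 (adjusted p = 0.0201).

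Smad6 measured 6.98, 6.56 and 6.77 at day 0, 7.98, 9.36 and 9.08 in spontaneous cells, 6.84, 8.88 and 7.50 in the cardiac culture and 7.51, 6.65 and 7.04 on the sorted CPC arrays. Smad6, an inhibitory SMAD induced by BMP signals, was above day 0 on the spontaneous arrays, cardiac replicates 2 and 3 and sorted CPC replicates 1 and 3. Its spontaneous rise was 2.04 ± 0.45 (4.10-fold, adjusted p = 0.0133), and the call was lost when iPSC replicate 2 or either of spontaneous replicates 2 and 3 was omitted (adjusted p = 0.0544 to 0.0697). Smad7 measured 9.42, 9.16 and 8.75 at day 0, 8.30, 9.20 and 9.12 in spontaneous cells, 8.05, 8.83 and 8.09 in the cardiac culture and 8.15, 8.83 and 8.65 on the sorted CPC arrays. Smad7, the other inhibitory SMAD, had at least 1 array of each day 4 group inside the day 0 range and its others below it or inside it, with a cardiac difference of -0.78 ± 0.28 (adjusted p = 0.125).

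Smad4 measured 9.68, 9.68 and 9.65 at day 0, 10.21, 10.20 and 10.11 in spontaneous cells, 9.91, 10.38 and 10.13 in the cardiac culture and 10.26, 10.14 and 9.74 on the sorted CPC arrays. Smad3 measured 7.69, 7.44 and 7.20 at day 0, 8.13, 8.07 and 7.82 in spontaneous cells, 7.90, 8.34 and 7.94 in the cardiac culture and 7.86, 8.08 and 7.86 on the sorted CPC arrays. Smad4 is the common partner of both branches and Smad3 serves TGF-beta and activin receptors. In spontaneous cells the differences were 0.50 ± 0.15 for Smad4 (adjusted p = 0.0455) and 0.57 ± 0.17 for Smad3 (adjusted p = 0.0491), both under the minimum. Each of these p-values rose above 0.05 when 1 array was left out, whichever array it was. The other 3 SMADs (Smad2, Smad5 and Smad9) differed from day 0 by -0.23 to 0.44, with 0 calls.

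**Figure D3:**
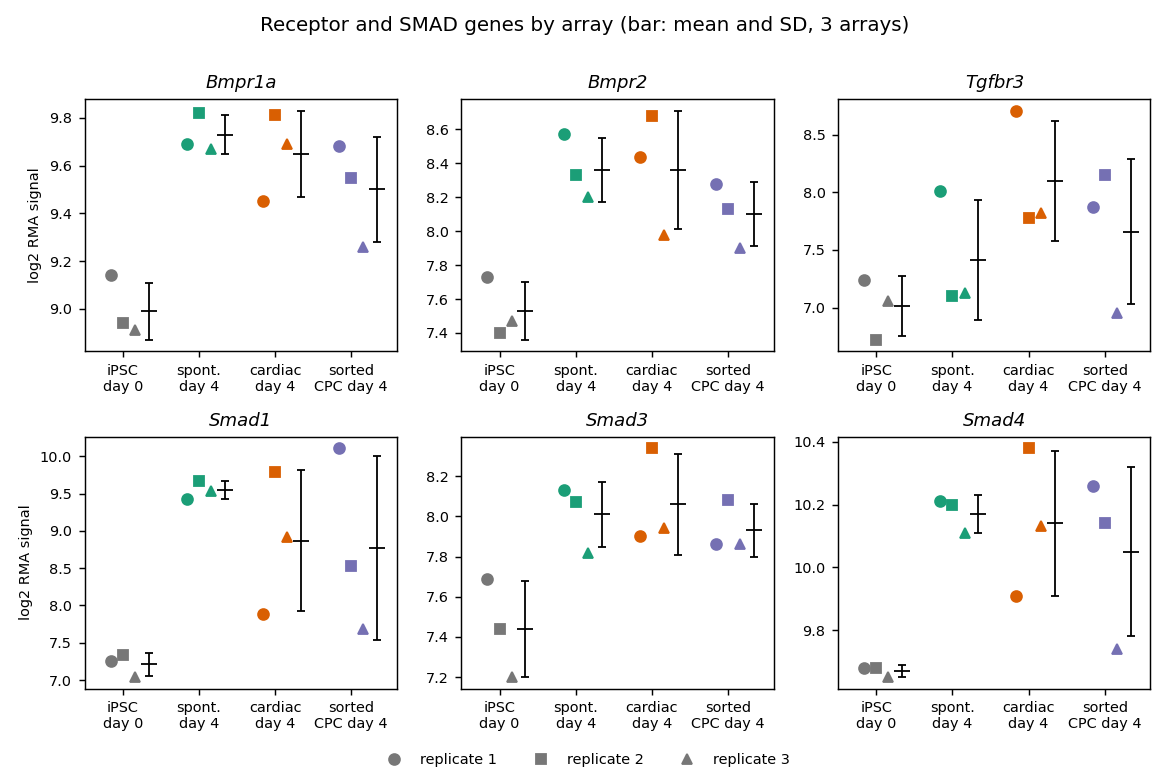
Log2 RMA signal (y axis, scaled per panel) of 3 receptor and 3 SMAD genes on each of the 12 arrays by group (x axis); markers show replicates and bars the mean and SD of 3 arrays. Bmpr1a, Bmpr2, Smad1, Smad3 and Smad4 are above the day 0 arrays on all 9 day 4 arrays, and Tgfbr3 overlaps day 0 in spontaneous and sorted CPC cells.

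Of the 6 targets 3 rose in spontaneous cells, and Msx2 and Msx1 had the 2 largest differences of the 41 genes there. To show the stretches upstream of these genes, the 250 bases before the RefSeq start (GRCm38.p6, read 5′ to 3′ on the gene's strand) are given for the called targets Id3, Msx1 and Msx2, for the called feedback gene Smad6 and for the uncalled target Id2. Capitals mark GTCT, the SMAD box, on either strand (AGAC as its reverse complement), and GGCGCC, a GC-rich SMAD element. The windows lie at chr4:136143572-136143821 (plus strand, Id3), chr12:25096093-25096342 (minus, Id2), chr5:37824586-37824835 (minus, Msx1), chr13:53472781-53473030 (minus, Msx2) and chr9:64022060-64022309 (minus, Smad6).
Id3: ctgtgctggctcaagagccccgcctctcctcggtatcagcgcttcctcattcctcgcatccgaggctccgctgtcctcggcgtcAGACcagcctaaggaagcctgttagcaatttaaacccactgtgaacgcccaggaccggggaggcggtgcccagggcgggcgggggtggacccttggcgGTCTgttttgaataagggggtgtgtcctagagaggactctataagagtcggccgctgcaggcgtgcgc
Id2: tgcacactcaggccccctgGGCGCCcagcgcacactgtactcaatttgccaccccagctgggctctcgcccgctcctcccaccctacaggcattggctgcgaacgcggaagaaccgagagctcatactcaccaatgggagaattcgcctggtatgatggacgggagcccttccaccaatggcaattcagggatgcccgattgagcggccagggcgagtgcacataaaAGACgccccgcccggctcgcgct
Msx1: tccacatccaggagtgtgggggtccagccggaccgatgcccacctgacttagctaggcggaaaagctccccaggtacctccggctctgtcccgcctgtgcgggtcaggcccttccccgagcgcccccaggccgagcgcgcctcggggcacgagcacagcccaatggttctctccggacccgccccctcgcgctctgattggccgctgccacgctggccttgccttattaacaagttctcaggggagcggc
Msx2: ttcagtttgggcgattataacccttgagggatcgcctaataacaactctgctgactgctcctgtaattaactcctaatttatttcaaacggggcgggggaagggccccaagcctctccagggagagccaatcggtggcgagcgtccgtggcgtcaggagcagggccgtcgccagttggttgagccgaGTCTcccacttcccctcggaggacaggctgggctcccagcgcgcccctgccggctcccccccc
Smad6: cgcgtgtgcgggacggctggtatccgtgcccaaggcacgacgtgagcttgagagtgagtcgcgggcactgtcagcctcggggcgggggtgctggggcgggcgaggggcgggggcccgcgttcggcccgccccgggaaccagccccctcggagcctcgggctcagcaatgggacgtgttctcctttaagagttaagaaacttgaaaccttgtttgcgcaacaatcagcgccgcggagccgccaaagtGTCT
Id3 has 2 SMAD boxes in its window, Msx2, Smad6 and Id2 have 1 each and Msx1 has 0, while GGCGCC occurs once in Id2 and not in the other 4. Of 30 members with a window in the RefSeq table, 25 held GTCT and 9 held GGCGCC in at least 1 window. Counted by window, 29 of their 35 windows held GTCT, beside 82.9% of all 32851 windows of this length. GGCGCC was in 9 of the 35, beside 9.59% of all windows. The member windows were 42.8% to 85.6% G and C, and the windows of all genes were not matched to them for this. Of the 8 called members with a window, 6 held GTCT and 0 held GGCGCC. The palindrome GTCTAGAC, and the spacing of the BMP response element (GGCGCC, any 5 bases, then GTCT), were found in 0 of the 30, and in 0.167% and 0.07% of all windows. These matches describe letters in the window and not bound sites.

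Id3 measured 7.21, 6.68 and 7.38 at day 0, 8.67, 9.54 and 9.30 in spontaneous cells, 6.92, 9.05 and 7.92 in the cardiac culture and 7.06, 7.54 and 6.60 on the sorted CPC arrays. Id3 encodes an inhibitor of basic helix-loop-helix factors and is a direct BMP target, and it was high on the spontaneous arrays and cardiac replicates 2 and 3, with cardiac replicate 1 and sorted CPC replicates 1 and 3 within or below the day 0 range. It rose by 2.08 ± 0.43 in spontaneous cells (4.23-fold, adjusted p = 0.0100), a call lost without spontaneous replicate 2 (adjusted p = 0.0534). Id1 measured 8.38, 8.11 and 8.49 at day 0, 8.73, 9.38 and 9.37 in spontaneous cells, 8.61, 9.32 and 8.45 in the cardiac culture and 8.53, 8.36 and 7.94 on the sorted CPC arrays. Id1, a BMP target of the same family, was above day 0 on all spontaneous arrays by 0.83 ± 0.24 (adjusted p = 0.0492), under the minimum, and its sorted arrays overlapped day 0. The adjusted p of Id1 rose to 0.0724 to 0.188 when any 1 array except spontaneous replicate 1 was omitted, and to 0.0609 with arrays centred on their medians.

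Msx1 measured 6.85, 7.07 and 6.70 at day 0, 9.04, 10.01 and 9.68 in spontaneous cells, 6.83, 9.66 and 8.28 in the cardiac culture and 8.98, 7.29 and 7.47 on the sorted CPC arrays. Msx2 measured 6.51, 6.48 and 6.18 at day 0, 8.26, 9.96 and 9.59 in spontaneous cells, 6.29, 9.33 and 7.62 in the cardiac culture and 7.81, 6.39 and 6.91 on the sorted CPC arrays. Msx1 and Msx2 are homeobox factors and BMP targets in mesoderm and ectoderm. Their spontaneous arrays all lay above day 0 and cardiac replicate 1 lay within the day 0 range. Msx1 rose by 2.70 ± 0.58 (6.52-fold, adjusted p = 0.0117) and Msx2 by 2.88 ± 0.62 (7.36-fold, adjusted p = 0.0124) in spontaneous cells, and both calls were lost without spontaneous replicate 2 (adjusted p = 0.0589 and 0.0646). Without spontaneous replicate 3 the adjusted p of Msx2 was 0.0552. In the cardiac culture the differences were 1.38 ± 0.58 (adjusted p = 0.181) for Msx1 and 1.35 ± 0.62 (adjusted p = 0.221) for Msx2.

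Id2 and Id4, of the same family as Id1 and Id3, had 0 calls and lower means than day 0 in each day 4 group. Id4 measured 7.60, 8.40 and 8.06 at day 0, 7.06, 7.35 and 8.19 in spontaneous cells, 7.03, 7.37 and 7.46 in the cardiac culture and 6.68, 8.17 and 7.00 on the sorted CPC arrays. Id4 had its spontaneous and sorted arrays overlapping day 0, its cardiac arrays below it, and a cardiac difference of -0.74 ± 0.36 (adjusted p = 0.250). Id2 measured 8.48, 9.02 and 9.08 at day 0, 7.97, 8.87 and 8.79 in spontaneous cells, 8.88, 8.15 and 8.18 in the cardiac culture and 6.56, 8.79 and 9.29 on the sorted CPC arrays. Id2 was chosen for full values after they were seen, because sorted CPC replicate 1, at 6.56, was the lowest of all arrays and the other 11 lay between 7.97 and 9.29. Its differences from day 0 were -0.32 in spontaneous cells, -0.46 in the cardiac culture and -0.65 in the sorted group (adjusted p = 0.771, 0.621 and 0.568).

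**Figure D4:**
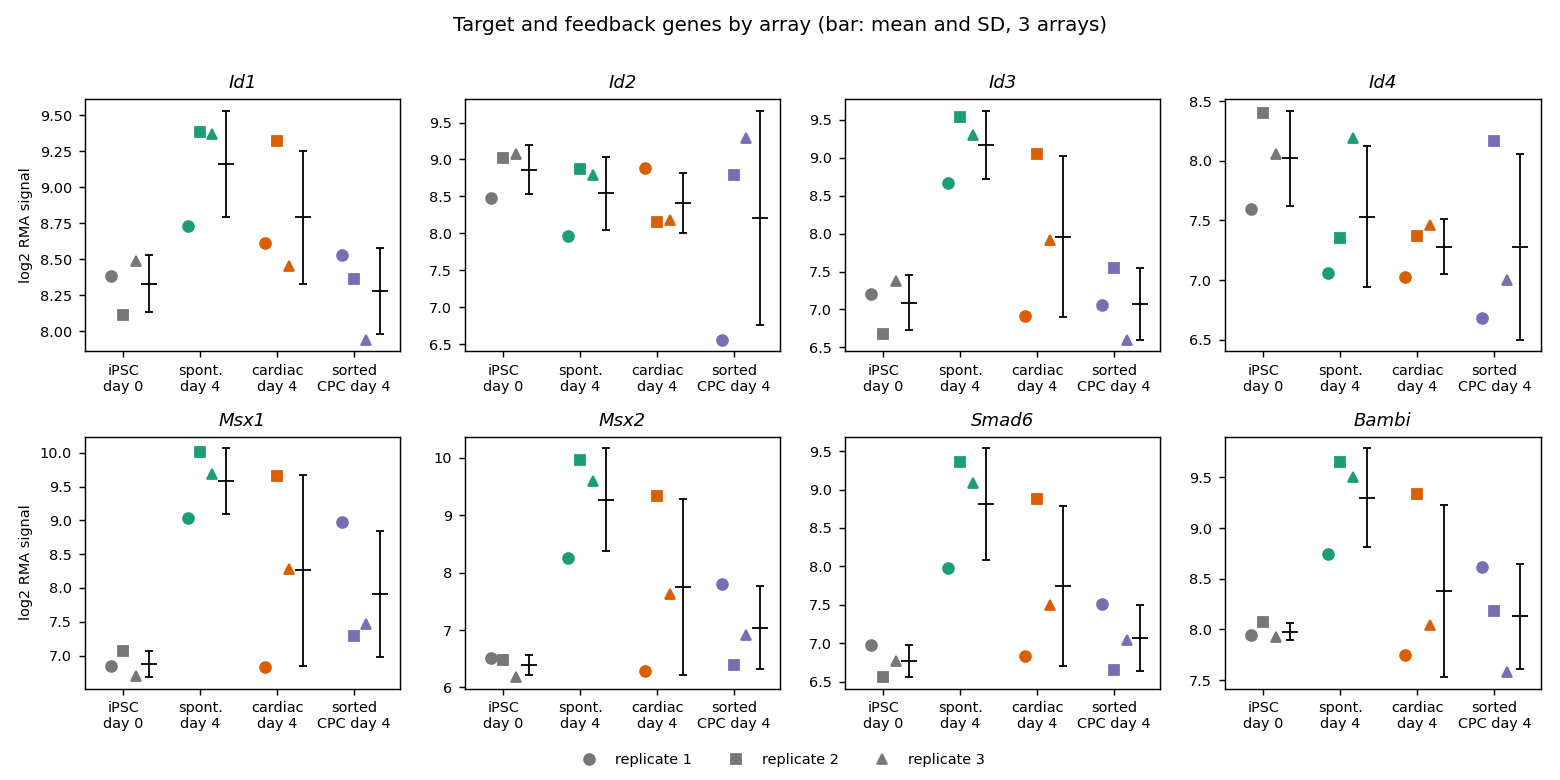
Log2 RMA signal (y axis, scaled per panel) of the 6 target genes and the feedback genes Smad6 and Bambi on each of the 12 arrays by group (x axis); markers show replicates and bars the mean and SD of 3 arrays. Id3, Msx1 and Msx2 are above the day 0 arrays on all spontaneous arrays, and Id2 on sorted CPC replicate 1 lies at 6.56.

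By class, the share of members called in spontaneous cells was 3 of 11 ligands, 0 of 9 receptors, 2 of 7 antagonists, 2 of 8 SMADs and 3 of 6 targets. The median differences of these classes were 0.41, 0.42, 0.37, 0.47 and 1.46, against a median of -0.03 over all genes. In the cardiac culture the class medians were -0.23, 0.45, 0.35, 0.43 and 0.67, and in the sorted group 0.10, 0.21, 0.15, 0.22 and -0.04. Spontaneous arrays lay wholly above day 0 for 21 of the 41 genes and wholly below for 2, where the shares of all genes were 19.4% and 21.6%. For the cardiac culture these counts were 8 and 5, beside 12.8% and 16.2%, and for the sorted group 8 and 5, beside 10.2% and 11.3%. At an unadjusted p under 0.05 there were 22 members in spontaneous cells and 16 in the cardiac culture, where 24% and 22.4% of all genes passed. A moderated F test over the 4 groups called 7 of the 41 (Bmp2, Bmp5, Inhbb, Bmpr1a, Bmpr2, Smad6 and Id3), where 5.86% of all genes were called.

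The members varied more between arrays of a group than the median gene did, with the widest spread in the cardiac and sorted groups. The 41 genes had a median SD of 0.18 on the day 0 arrays, 0.16 in spontaneous cells, 0.41 in the cardiac culture and 0.36 in the sorted group, against 0.12, 0.10, 0.18 and 0.20 over all genes. In the cardiac culture 8 members had an SD above 1: Bmp4, Bmp5, Tgfb1, Fst, Smad6, Id3, Msx1 and Msx2. In the sorted group these were 4, Fst, Bmper, Smad1 and Id2. The 10 genes called in spontaneous cells show where the arrays lay, with no test, since spontaneous values chose them. Cardiac replicate 2 was above the day 0 range for 10 of the 10, with a median difference from the day 0 mean of 2.34. Cardiac replicate 3 was above for 9, with a median of 0.93, and cardiac replicate 1 for 2 (Bmp2 and Smad1), with a median of 0.04. Sorted CPC replicates 1, 2 and 3 were above for 9, 7 and 6, with medians of 1.08, 0.20 and 0.39. Cardiac replicate 1 and sorted CPC replicates 2 and 3, with the lowest medians, are also the libraries with low Kdr and low streak and mesoderm markers, and the part of these in the results was not tested.

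**Figure D5:**
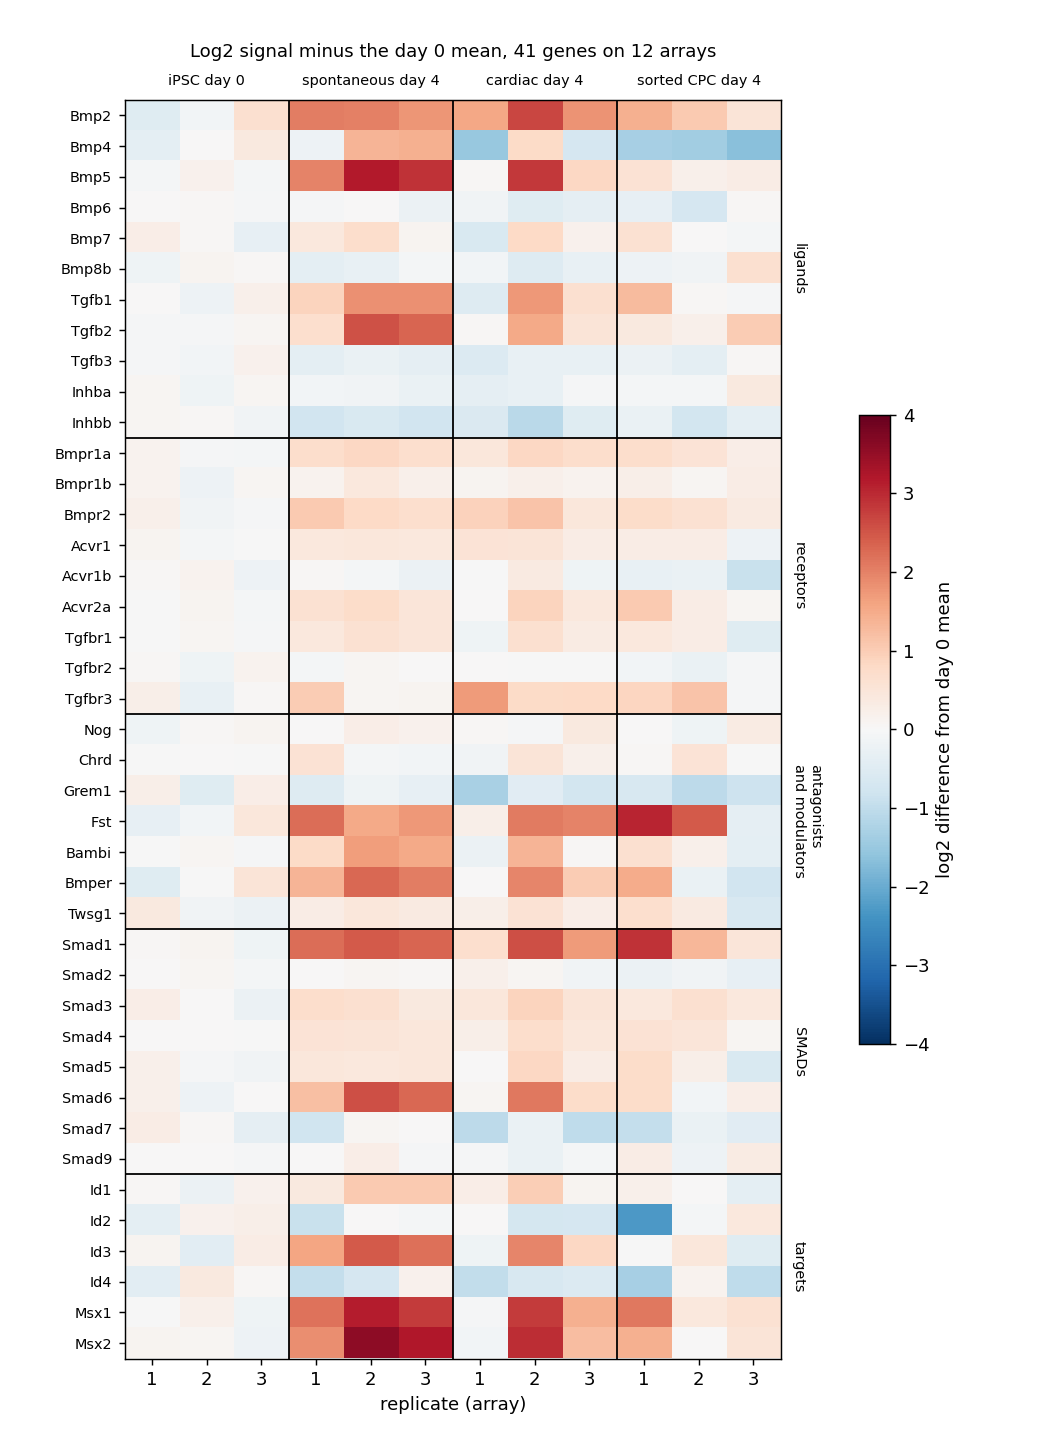
Difference of each array's log2 signal from the day 0 mean (colour, log2 units) for the 41 genes (rows, by class) on the 12 arrays (columns, by group and replicate). Over the 10 genes called in spontaneous cells, cardiac replicate 2 has a median difference of 2.34 and cardiac replicate 1 of 0.04.

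The counts in the cardiac and sorted comparisons depended on these libraries. Without cardiac replicate 1, 6 members were called higher in the cardiac culture (Bmp2, Bmp5, Smad1, Id3, Msx1 and Msx2), where 1.97% of all genes were called higher. Without that array and sorted CPC replicates 2 and 3 the count was 10, where 2.46% of all genes were called, and it added Tgfb1, Fst, Bmper and Smad6. Without sorted CPC replicates 2 and 3 alone it was 3 (Bmp2, Tgfbr3 and Smad1, against 1.53% of all genes), and without cardiac replicate 3 it was 2. Without iPSC replicate 2, or without cardiac replicate 2, 1 member was called higher and 1 lower. Over all genes 309 and 295 were called in these settings and 341 without cardiac replicate 3, against 439 with every array. In the sorted group, leaving out sorted CPC replicates 2 and 3 gave 3 members higher (Acvr2a, Fst and Smad1) and 1 lower (Id2), where 1.39% of all genes were called higher and 2.74% lower. That comparison rests on 1 sorted array, which is assumed to vary like the other groups. With cardiac replicate 1 left out as well, 6 were higher and 2 lower, against 1.97% and 3.14%. Leaving out sorted CPC replicate 3 alone gave 3 called members (608 of all genes), and leaving out iPSC replicate 2 or 3 gave 1 (332 and 390 of all genes). With every array 420 of all genes were called in this comparison. The spontaneous count of 10 was 11 without cardiac replicate 1 (2.17% of all genes) and 12 without sorted CPC replicates 2 and 3 (2.24%). Without all of these arrays it was 12 (2.36%). Tgfb1 was the gene added in each case, joined by Fst in the last 2. These arrays are not part of the spontaneous comparison, so leaving them out changed only the shared spread and not its differences. The stability of the spontaneous count cannot be read from these settings. With 1 of its own arrays left out, the spontaneous count was 2 to 10.

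Between the day 4 groups 0 members were called by limma, where 0 of all genes were called except 1 (0.00502%) higher in sorted CPCs than in spontaneous cells. Cardiac and spontaneous cells differed by -1.53 (Msx2, 95% interval -2.87 to -0.18) to 0.69 (Tgfbr3), at adjusted p-values of 0.999 and above, with 8 members at an unadjusted p under 0.05, against 3.73% of all genes. No member had all cardiac arrays above all spontaneous arrays and 1, Smad9, had them below, where the shares of all genes were 5.23% and 3.77%. In the comparison of sorted CPCs with spontaneous cells, 13 members had all sorted arrays below all spontaneous arrays and 1 had them above, where the shares of all genes were 10.2% and 9.44%. Among the 13 were Bmp4 at -2.33 (interval -3.42 to -1.24, adjusted p = 0.258), Bmp5 at -2.32 (interval -3.43 to -1.21, adjusted p = 0.258), Msx2 at -2.24 (interval -3.58 to -0.89, adjusted p = 0.304) and Id3 at -2.11 (interval -3.03 to -1.18, adjusted p = 0.207). At an unadjusted p under 0.05 there were also 13 members, where 11.6% of all genes passed. Follistatin differed by -0.11, with an interval from -1.63 to 1.40. Sorted and cardiac cells differed by -1.01 (Bmp2, interval -1.71 to -0.32, adjusted p = 0.269) to 0.42, with 4 members at an unadjusted p under 0.05, against 15.7% of all genes. Sorted arrays lay wholly above cardiac arrays for 0 members and wholly below for 5 (Bmp2, Acvr1, Acvr1b, Tgfbr2 and Smad2), where the shares of all genes were 7.79% and 5.3%. Without cardiac replicate 1 and sorted CPC replicates 2 and 3, sorted CPC replicate 1 differed from spontaneous cells by -1.99 for Id2 and -2.12 for Id3. These differences rest on 1 sorted array, so the spread among sorted arrays could not enter them.

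A wider list of 80 other pathway genes had 74 measured. Of these, 4 were called higher (5.41%) and 1 lower in spontaneous cells, where 1.99% and 1.57% of all genes were called. In the cardiac culture 2 were called higher (2.7%) and 0 lower, beside 1.26% and 0.943% of all genes. The sorted group had 0 against day 0, beside 0.787% higher and 1.32% lower of all genes. Between day 4 groups there were also 0, where at most 1 of all genes was called. Higher in spontaneous cells were Gata3, a transcription factor gene induced by BMP and also on the list of trophectoderm markers, by 2.21 (adjusted p = 0.0165), Foxh1, the DNA-binding partner of SMADs in Nodal signalling, by 1.77 (adjusted p = 0.00192), Hey1, a Notch and BMP target, by 1.60 (adjusted p = 0.0165), and Amhr2, the anti-Mullerian hormone receptor, by 1.19 (adjusted p = 0.0261). Ltbp4, which anchors latent TGF-beta in the matrix, fell by 1.16 (adjusted p = 0.00140). In the cardiac culture Cer1, a secreted antagonist of Nodal and BMP that is also on the list of definitive endoderm markers, was higher by 2.31 (adjusted p = 0.0166) and Foxh1 by 1.15 (adjusted p = 0.0243). The median of the wider list was 0.03 in spontaneous cells, -0.02 in the cardiac culture and 0.11 in the sorted group, beside -0.03, -0.05 and 0.03 over all genes.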

How the data were processed

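Per the submitters' processing notes, the authors summarised the arrays by RMA with Affymetrix Expression Console 1.3.1, and the deposited values are taken as log2 signals because RMA gives these and the values run from 1.87 to 13.87. No genome build is named in the sources used here. Precision is limited by the number of arrays, 12. Of 35557 probe sets, 21789 carried 1 gene symbol, 1621 several and 12147 were not listed in the platform annotation. The probe set with the highest mean per gene left 19938 genes, and none of these was filtered out.

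All 12 arrays entered 1 model with a mean per group in limma 3.58.1 (R 4.3.3), with moderated statistics, an intensity trend, two-sided p-values and Benjamini-Hochberg adjustment over 19938 genes. The model had 8 residual and 5.01 prior degrees of freedom. The members and lists were chosen with earlier results of these data known. Values of every array are given for called members, up to 2 uncalled members a class with the widest range of group means and the member with the highest mean in its class; the others are given by range, and Inhbb and Id2 were added later. Counts and differences were recomputed with the replicate number as a block, other variance estimates, array weights, a filter on dim genes, other scalings, averaged probe sets per gene, only the 2 groups compared, no minimum difference, and arrays left out. The fit was also tested on simulated data with known changes. Promoter windows came from RefSeq (GRCm38.p6), and 11 of the 41 members had none.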

Additional observations from a re-analysis of the deposited data

How the results depend on the processing

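Within 1.5 times the count reported were 16 of 20 alternatives for spontaneous cells against day 0, 9 of 20 for the cardiac culture, 13 of 20 for the sorted group and 11 of 24 for the F test. Between day 4 groups the counts of 0 say little about stability, since in the reported fit at most 1 of all genes was called there. Some other settings called more genes. For sorted CPCs against spontaneous cells 18 were called without spontaneous replicate 1, with 0 members among them. For sorted CPCs against the cardiac culture, further genes were called without sorted CPC replicates 2 and 3, which leaves 1 sorted array. None of the 988 alternatives for 52 single-gene differences reversed (871 unchanged in call, 76 lost it and 41 gained it). The 52 were picked in these same data for a log2 difference of at least 1 or an adjusted p under 0.05. A reversal was therefore unlikely from the start. The spontaneous count of 10 (711 of all genes) was 16 with no minimum difference (1943) and 2 to 10 with 1 array left out (430 to 651). The cardiac count of 1 was 3 with array weights, 3 with only the arrays of the 2 groups compared, 5 with no minimum difference, 3 without sorted CPC replicates 2 and 3, 6 without cardiac replicate 1, 10 without all of these arrays, and 1 to 6 with 1 array left out. The sorted count of 0 was 3 with array weights, 1 with only the 2 groups' arrays, 4 without sorted CPC replicates 2 and 3, 8 without those and cardiac replicate 1, and 0 to 3 with 1 array left out. For sorted CPCs against spontaneous cells, the setting without the 3 low-Kdr libraries leaves 1 sorted array, and its count was not interpreted. The F test count of 7 was 4 with robust variance estimates, 23 with array weights, 12 without sorted CPC replicates 2 and 3, 11 without cardiac replicate 1, 20 without all of them, and 1 to 15 with 1 array left out. Over all genes the F test called 1169 with every array, 1139 with robust variance estimates and 4669 with array weights. It called 1573 without cardiac replicate 1 and 354 to 1791 with 1 array left out. In the cardiac comparison 496 of all genes were called with array weights, 473 with only the 2 groups' arrays and 1231 with no minimum difference, against 439. It was 284 to 653 with 1 array left out. In the sorted comparison 571 were called with array weights and 362 with only the 2 groups' arrays, against 420. The count over all genes thus moved too, and the member counts alone do not single out the pathway. The F test counts without sorted CPC replicates 2 and 3 rest on 1 sorted array and were not interpreted. Why the counts moved was not tested, and a setting that leaves out arrays changes both their number and which ones remain.

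With the replicate number as a block, the counts were 9 in spontaneous cells (Bmper lost its call), 2 in the cardiac culture (Bmp2 and Tgfbr3, the latter at an adjusted p of 0.0346) and 0 in the other 4 comparisons, and Id1 in spontaneous cells had an adjusted p of 0.0612. Of all genes, 688, 435 and 416 were then called in the spontaneous, cardiac and sorted comparisons with day 0. Without the block these were 711, 439 and 420. Same-numbered arrays deviated from their group means with correlations of -0.38 to 0.31 over 18 pairs, 6 of them above 0.1, so the numbers were not taken to pair the arrays.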
